A study of Macaca mulatta with 13 samples.

Results

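The genes described here are those that carry a cell through DNA replication and division, followed in the blood of infant rhesus macaques raised under different conditions. They were chosen by name: a list of 38 genes of the cell cycle and of DNA replication, each measured by every probe set that the array annotation pairs with that symbol alone. The annotation gave such a probe set to 26 of the 38 genes, out of 14132 genes named in this way on the array, and 51 probe sets in all. The other 12 listed genes, MCM6, MCM7, FEN1, TK1, RRM2, BUB1, BUB1B, PLK1, CDC20, BIRC5, KIF11 and NUSAP1, were paired with no such probe set in the annotation used and were not analysed here. Each gene was represented by its probe set of highest mean over all arrays, and the other probe sets are given where they bear on a result.

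The study asked whether gene expression differs with early rearing. Total RNA came from peripheral blood mononuclear cells, the lymphocytes and monocytes of the blood, of 13 rhesus macaques aged 4 months, and each animal had 1 Affymetrix rhesus array. The groups were 4 Surrogate-peer reared animals, 4 Peer reared animals and 5 Maternally reared animals, called surrogate-peer, peer and maternal from here on; the surrogate-peer and peer animals together are called the 8 non-maternal animals. Rearing with peers, with or without an inanimate surrogate, takes place without the mother, and the labels give no further detail of housing, and neither sex nor a batch.

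Before a cell divides, origins of replication are licensed by loading the MCM helicase ring, and cyclin-dependent kinases later fire those origins so that DNA polymerases can copy the genome. Further cyclin-dependent kinase and Aurora kinase activity then drives chromosome condensation, spindle assembly and separation of the chromosomes. Circulating lymphocytes and monocytes are mostly resting, so transcripts of these genes in blood come largely from the few cells that are cycling, although several of the encoded proteins also act in DNA repair or gene control in resting cells.

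The markers of the sample's cell types were present as labelled: 8 of 8 measured T cell markers, 11 of 11 NK and cytotoxic markers, 9 of 9 B cell markers and 9 of 9 monocyte markers were above the signal filter. The filter was a mean over all arrays above 6.04 on the log2 scale, the median of all probe sets. Some measures of the arrays themselves moved with rearing. The log2 ratio of 3' to 5' signal of the actin and GAPDH controls, which rises as RNA is degraded, averaged 1.38 ± 0.06 in surrogate-peer, 1.55 ± 0.14 in peer and 1.86 ± 0.28 in maternal arrays (SD, n = 4, 4 and 5). The SD of all values within an array lay between 2.13 and 2.16 in the non-maternal arrays and between 2.10 and 2.12 in the maternal arrays. By the test used below, 5 of 11 NK and cytotoxic markers were lower in the non-maternal animals. On the log2 scale these were GZMH (-1.61), GZMB (-1.37), the Fc receptor FCGR3 (-1.20), NKG7 (-1.01) and CST7 (-0.92, and -1.14 in peer against maternal animals). NCAM1, the NK adhesion molecule CD56, was higher at its probe set of highest mean (0.48) but passed at none of its 4 other tested probe sets. Of 8 plasma cell markers 1 was lower, PRDM1 (-0.73), and of 9 monocyte markers 1, MS4A7 (-1.48), while 0 of 6 erythroid, 0 of 5 progenitor and 0 of 5 platelet markers were called. Fewer cells of a type and less RNA per cell cannot be told apart in such bulk samples, and this holds for every result that follows.

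Rearing left nearly all of the cell cycle and replication genes without a detectable difference. Of the 26 genes, 22 passed the filter and were tested, and 4 lay below it: CDC6, CCNE2, CDK1 and TPX2. In the 8 non-maternal against the 5 maternal animals 0 genes rose and 1 fell, POLD1, the catalytic subunit of DNA polymerase delta (limma, adjusted p under 0.05, Benjamini-Hochberg over 26352 probe sets). Of all 9657 genes tested in the same way 6.30% rose and 1.69% fell, 7.98% in all, and 1 call among 22 genes is no larger a share than this total. The groups overlapped for all 22 genes, and for all but 2.64% of all genes. At an unadjusted p under 0.05 the count was 3 of 22, against 29.7% of all genes. The log2 fold change was positive for 8 of the 22 genes and negative for 14, with a median of -0.05, beside 0.01 over all genes. Its median size regardless of sign was 0.11, beside 0.16 over all genes.

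**Figure D1:**
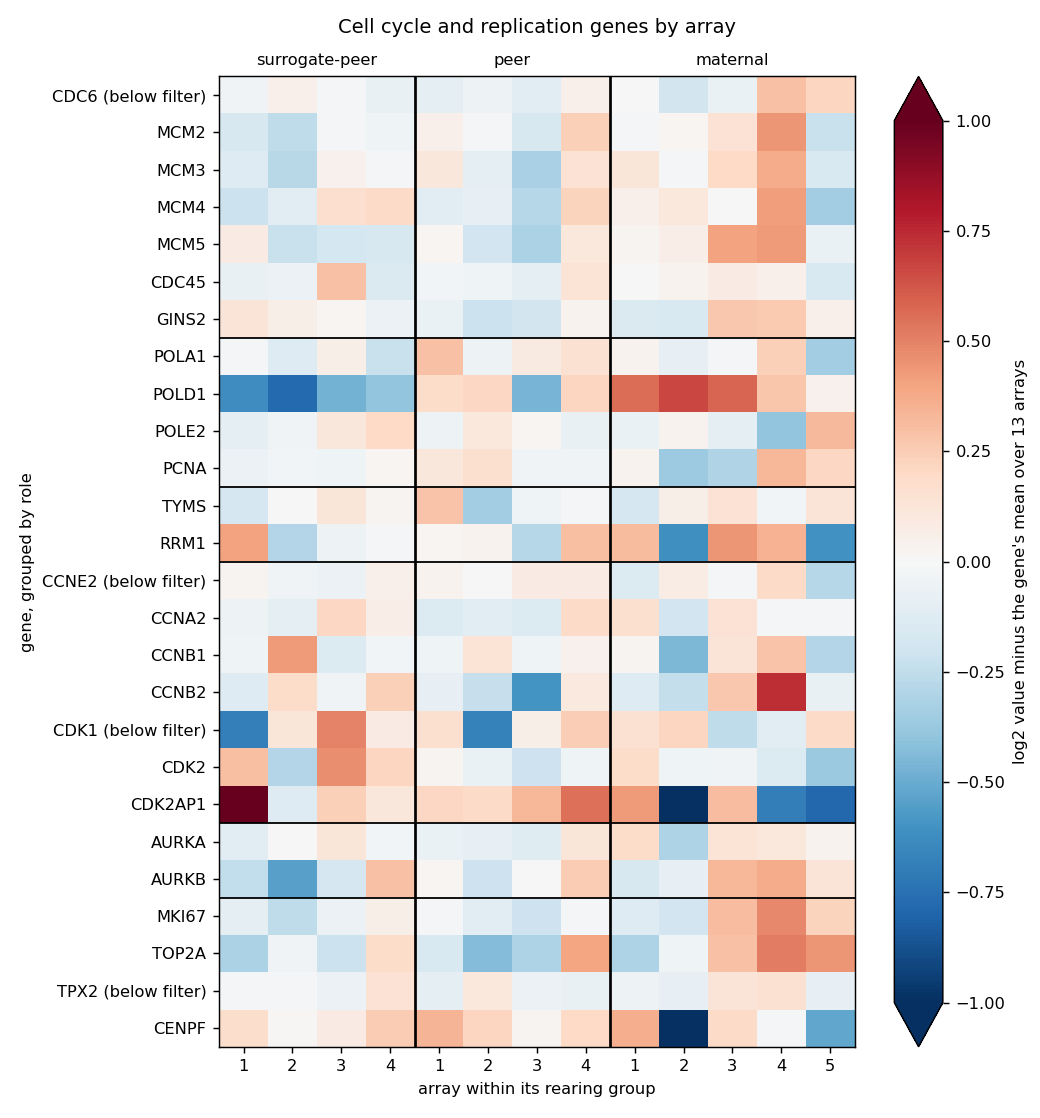
Log2 value of each of the 26 measured genes (rows, grouped by role, at the probe set of highest mean) on each of the 13 arrays (columns, by rearing group), shown as the difference from that gene's mean over all arrays; colours saturate at 1 log2 unit in either direction. POLD1 is low on all 4 surrogate-peer arrays and above its mean on all 5 maternal arrays, CDK2AP1 and CENPF are lowest on maternal array 2, and maternal array 4 holds the highest value of 9 of the 22 tested genes.

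Against the maternal arrays alone, which both comparisons share, 0 of the 22 genes were called in peer animals and 0 in surrogate-peer animals. The background was 0.197% of all genes in the peer comparison and 0 in the surrogate-peer comparison. At an unadjusted p under 0.05 the counts were 1 of 22 in peer animals, against 25.8% of all genes, and 2 of 22 in surrogate-peer animals, against 20.1%. Between surrogate-peer and peer animals 0 of the 22 genes and 0 of all genes were called, and 1 of 22 had an unadjusted p under 0.05, against 1.87% of all genes. The groups overlapped for all 22 genes in peer against maternal animals, with 9.21% of all genes not overlapping, and in surrogate-peer against peer animals, with 1.83% not overlapping. Medians of the log2 fold changes were -0.06 for peer against maternal, -0.03 for surrogate-peer against maternal and 0.00 for surrogate-peer against peer.

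The intervals show what size of change these arrays could have missed, if the spread of a gene is equal in all groups. The median SD was 0.14 in surrogate-peer, 0.16 in peer and 0.25 in maternal animals. Intervals against the maternal animals may therefore be too narrow. The 95% confidence interval of the non-maternal difference lay wholly within a doubling or halving for 21 of the 22 genes, the exception being CDK2AP1, and within 1.5-fold in either direction for 18. The median standard error of that difference was 0.11. Between surrogate-peer and peer animals the interval lay within a doubling or halving for all 22.

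**Figure D2:**
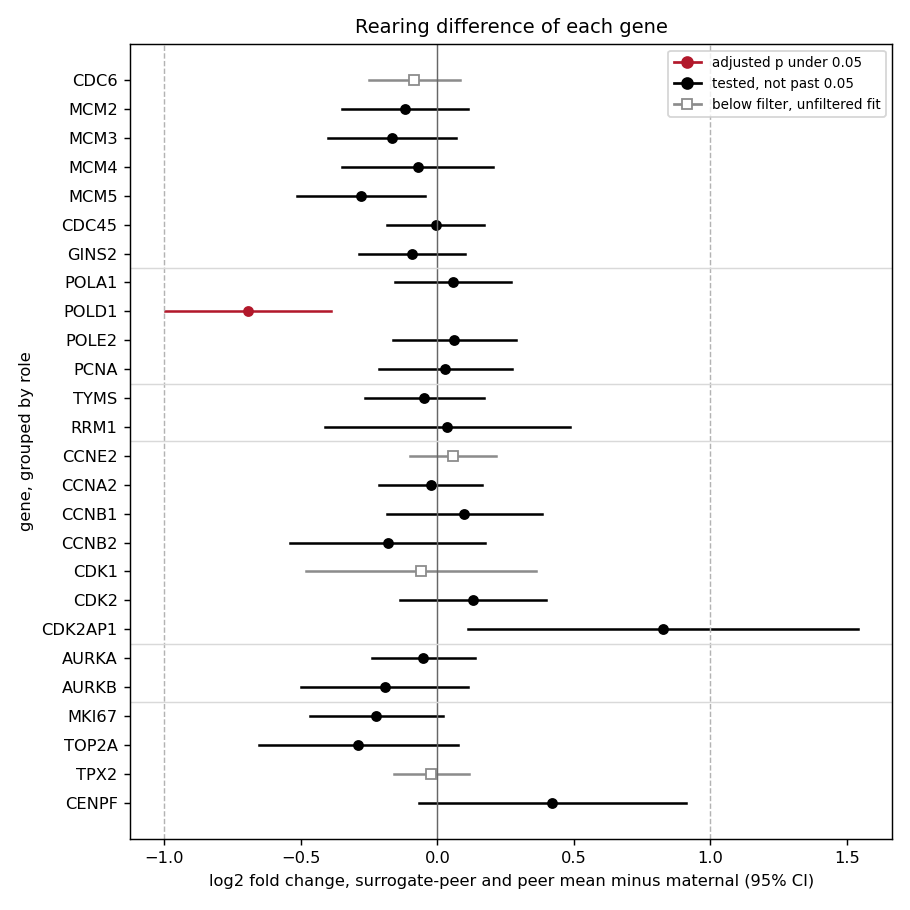
Log2 fold change of each gene (rows, by role) in the 8 non-maternal against the 5 maternal animals, with its 95% confidence interval from limma; dashed lines mark a doubling and a halving. POLD1 (red) is the gene past an adjusted p of 0.05, the CDK2AP1 interval reaches 1.54, and the 4 genes below the signal filter are drawn from a fit without the filter (open squares).

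Of the genes that license origins and form the replicative helicase, 0 of 6 tested were called in the non-maternal animals. MCM2, MCM3, MCM4 and MCM5 encode subunits of the helicase ring, and CDC45 and GINS2 encode the proteins that join that ring in the active helicase. All 6 had negative log2 fold changes, between -0.28 and -0.01, as they also had with quantile normalization. Centring each array on its median lowered the difference of every gene by the same amount, so it could not change these signs. The sign of MCM4 changed in 1 of 19 alternative settings and that of CDC45 in 8 of 19. MCM5 had the largest difference. MCM5 measured 9.41, 9.11, 9.15 and 9.17 in surrogate-peer animals, 9.35, 9.14, 9.02 and 9.43 in peer animals, and 9.36, 9.40, 9.73, 9.75 and 9.27 in maternal animals. Maternal arrays 3 and 4 were the highest, and the other maternal arrays lay among the non-maternal ones. The log2 fold change was -0.28 (SE 0.11, limma adjusted p = 0.113), and a second MCM5 probe set gave -0.08 (adjusted p = 0.560). CDC6, which loads the ring onto origins, lay below the filter with group means of 5.03, 4.99 and 5.09 in surrogate-peer, peer and maternal animals.

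Among polymerases and fork proteins POLD1 fell. POLD1 measured 7.81, 7.65, 7.95 and 8.03 in surrogate-peer animals, 8.61, 8.64, 7.96 and 8.64 in peer animals, and 8.98, 9.10, 9.01, 8.71 and 8.47 in maternal animals. All 4 surrogate-peer values lay below all 5 maternal values. Peer arrays 1, 2 and 4 lay above all surrogate-peer values and above maternal array 5, but below the other maternal arrays. Peer array 3 lay among the surrogate-peer arrays. Group means were 7.86 ± 0.17, 8.46 ± 0.33 and 8.85 ± 0.26 in surrogate-peer, peer and maternal animals (SD, n = 4, 4 and 5). The log2 fold change in the non-maternal animals was -0.69 (SE 0.14, 95% CI -0.998 to -0.389, limma adjusted p = 0.0232), and 8 non-maternal and 5 maternal values overlapped.

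Against maternal animals, POLD1 had a log2 fold change of -0.39 (SE 0.17, limma adjusted p = 0.168) in peer animals. The surrogate-peer animals had -0.99 (SE 0.17, limma adjusted p = 0.0586) against the same maternal arrays. POLD1 was the 1 gene of the 22 whose surrogate-peer and maternal values did not overlap, as was true of 5.51% of all genes. Surrogate-peer against peer gave -0.60 (limma unadjusted p = 0.00448, adjusted p = 0.9999), so the difference between these groups did not pass. With arrays centred on their medians, with quantile normalization or without maternal array 1, POLD1 passed in surrogate-peer animals, with adjusted p of 0.0423, 0.0440 and 0.0134. Without maternal array 4 the non-maternal difference was -0.73 but no longer passed (adjusted p = 0.0643), and likewise without maternal arrays 2 and 5 together (-0.74, adjusted p = 0.0605).

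A second POLD1 probe set did not share the difference. It averaged 8.06 ± 0.07 in surrogate-peer, 8.14 ± 0.22 in peer and 8.16 ± 0.21 in maternal animals, with a log2 fold change of -0.06 (SE 0.10, limma adjusted p = 0.716) in the non-maternal animals. Across the 13 arrays the 2 probe sets had a Pearson correlation of 0.51. The fall of POLD1 therefore rests on 1 of its 2 tested probe sets.

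Group means of the B cell markers and of the 3' to 5' ratio had the same order as those of POLD1. They were lowest in surrogate-peer and highest in maternal animals. The B cell list score, the mean over 9 measured markers of the log2 deviation from each marker's mean over all arrays, was -0.95, -1.15, -0.18 and -0.28 in surrogate-peer animals, 0.09, 0.54, -0.29 and 0.27 in peer animals, and 0.49, 0.99, 0.19, 0.03 and 0.25 in maternal animals. Peer array 3, the low POLD1 array of its group, also had the lowest B cell score of its group. All 9 B cell markers had negative log2 fold changes in the non-maternal animals (median -0.70), and FCRLA, a B cell Fc receptor-like protein, fell by 0.92 (limma adjusted p = 0.0210) at its probe set of highest mean, while its other tested probe set had -0.15 (limma adjusted p = 0.533). The part of the B cell markers and of the 3' to 5' ratio in the POLD1 difference was not tested.

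**Figure D3:**
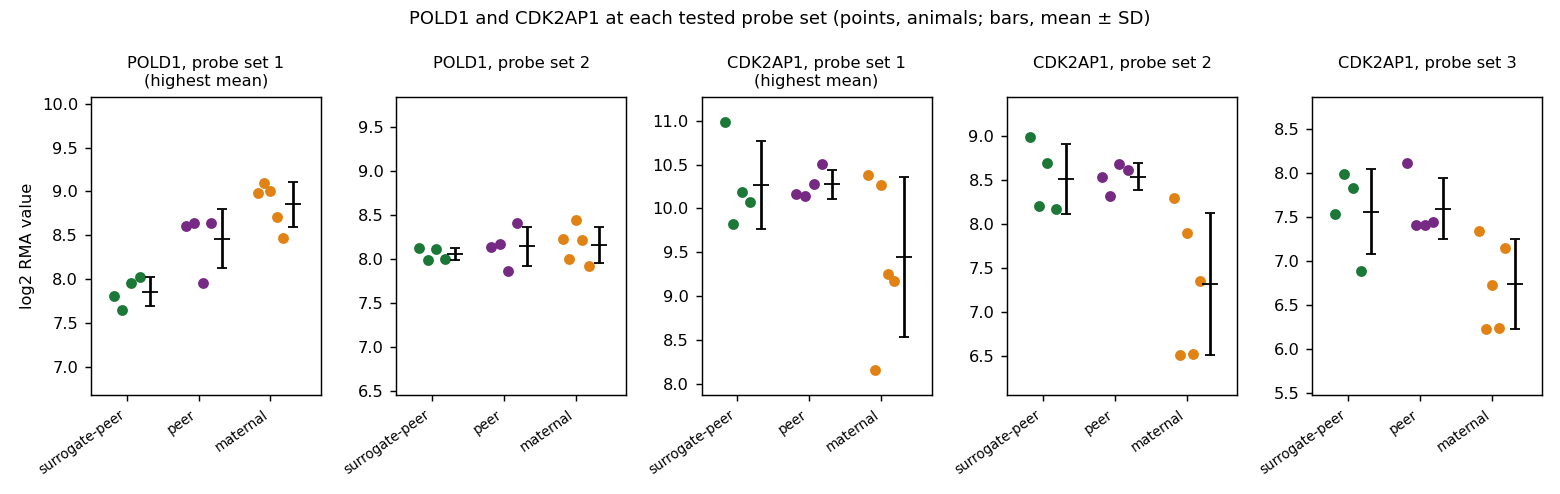
Log2 RMA values of each animal (points) at the 2 tested probe sets of POLD1 and the 3 of CDK2AP1, by rearing group, with group mean and SD (bars); the log axes differ in position and all span the same range. POLD1 is lowest in surrogate-peer animals at probe set 1 and similar in all groups at probe set 2, and CDK2AP1 has its lowest group mean in maternal animals at all 3.

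The other fork proteins had log2 fold changes close to 0. POLA1, the catalytic subunit of the polymerase alpha that starts each new strand, measured 7.68, 7.56, 7.74 and 7.46 in surrogate-peer animals, 7.98, 7.63, 7.77 and 7.84 in peer animals, and 7.73, 7.60, 7.67, 7.92 and 7.34 in maternal animals. The groups overlapped throughout, and the non-maternal difference was 0.06 (SE 0.10). POLE2, a subunit of polymerase epsilon, had 0.06 (SE 0.10) and PCNA, the sliding clamp of the polymerases, had 0.03 (SE 0.11). The signs of POLA1 and PCNA turned negative with each array centred on its median, a shift shared by all genes. The 2 tested probe sets of POLE2 ran against each other across arrays (Pearson r = -0.42) and had differences of 0.06 and -0.10. Their mean log2 values over all arrays lay far apart, at 12.05 and 6.32.

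Of the measured genes of nucleotide supply, 0 of 2 were called. TYMS, thymidylate synthase, had a log2 fold change of -0.05 (SE 0.10) in the non-maternal animals. RRM1, the large subunit of ribonucleotide reductase, had 0.04 (SE 0.21). RRM1 was 9.49 on maternal arrays 2 and 5, against 10.41, 10.54 and 10.45 on the other maternal arrays, and its difference became -0.35 (limma adjusted p = 0.186) without those arrays.

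Of the cyclins and cyclin-dependent kinases 0 of 5 tested genes were called at the probe set of highest mean. CCNA2, the cyclin of S and G2 phase, had a log2 fold change of -0.02 (SE 0.09). The mitotic cyclins CCNB1 and CCNB2 had 0.10 (SE 0.13) and -0.18 (SE 0.17). CDK2, the kinase partner of cyclins E and A, measured 8.92, 8.32, 9.08 and 8.83 in surrogate-peer animals, 8.65, 8.55, 8.41 and 8.58 in peer animals, and 8.80, 8.57, 8.58, 8.48 and 8.25 in maternal animals. Surrogate-peer arrays 1, 3 and 4 held the highest values and array 2 lay among the maternal ones. The surrogate-peer against peer difference was 0.24 (SE 0.15, limma adjusted p = 0.9999). A second tested CDK2 probe set did not share this pattern. Its surrogate-peer against peer difference was -0.002 (SE 0.15), and its highest value was on maternal array 3, at 7.55. CCNE2, the cyclin of entry into S phase, and CDK1, the mitotic kinase, lay below the filter with log2 fold changes of 0.06 and -0.06 in the non-maternal animals.

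CDK2AP1 encodes a protein that binds and restrains CDK2 and is also a subunit of the NuRD chromatin complex, so it is not a marker of cycling cells. It rose at 2 of its 3 tested probe sets but not at the probe set of highest mean. At that probe set CDK2AP1 measured 10.99, 9.82, 10.19 and 10.07 in surrogate-peer animals, 10.16, 10.14, 10.28 and 10.51 in peer animals, and 10.38, 8.16, 10.26, 9.26 and 9.17 in maternal animals. Maternal arrays 1 and 3 lay within the non-maternal range and maternal arrays 2, 4 and 5 below it. The log2 fold change was 0.83 (SE 0.33, 95% CI 0.11 to 1.54, limma adjusted p = 0.125). The second probe set gave 1.21 (SE 0.29, limma adjusted p = 0.0317) and the third 0.84 (SE 0.24, limma adjusted p = 0.0486). At both of these, all peer values lay above all maternal values. Peer and maternal values did not overlap, in either direction, for 9.48% of all tested probe sets. The background for a call at any tested probe set was 11.6% of genes. Correlations between the 3 probe sets across arrays were 0.90, 0.61 and 0.82.

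The calls of CDK2AP1 depended on single arrays, and the values moved with T cell markers. The second probe set no longer passed in 9 of 20 alternative settings and the third in 16 of 19; without maternal array 1 the probe set of highest mean passed (1.06, limma adjusted p = 0.0393). Without maternal arrays 2 and 5, the difference at the probe set of highest mean was 0.30 (limma adjusted p = 0.502). The T cell list score, over 8 measured markers, was 0.32, -0.05, 0.40 and 0.09 in surrogate-peer animals, 0.29, 0.03, 0.13 and 0.34 in peer animals, and -0.00, -0.60, -0.06, -0.25 and -0.63 in maternal animals. The maternal arrays with low CDK2AP1, arrays 2, 4 and 5, were also those with the lowest T cell scores. Maternal arrays 2 and 5 had in addition the highest monocyte scores of all arrays, 0.86 and 0.68, the next being 0.42 on surrogate-peer array 2. All 8 T cell markers had positive log2 fold changes in the non-maternal animals (median 0.64), and BCL11B, a T cell transcription factor, rose by 0.70 (limma adjusted p = 0.0313). The part of the T cell and monocyte markers in the CDK2AP1 difference was not tested.

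**Figure D4:**
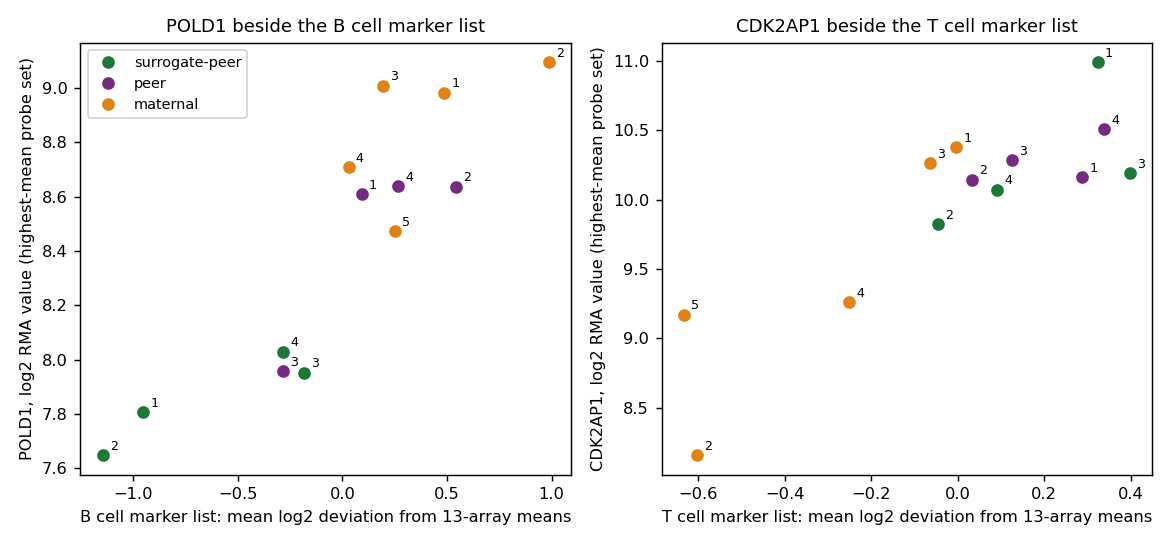
Left, log2 value of POLD1 (vertical axis) against the B cell marker list score (horizontal axis, mean log2 deviation); right, CDK2AP1 against the T cell marker list score; each point is an animal, labelled with its array number within its rearing group. The low POLD1 arrays, surrogate-peer 1 to 4 and peer 3, all have B cell scores below 0, and maternal arrays 2, 4 and 5 have both the lowest CDK2AP1 values and the lowest T cell scores.

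The tested mitotic genes of the list, whose transcripts peak when cells divide, were not detectably different at the probe set of highest mean. Mitosis genes outside the list, some of which were called, are given further below. The kinases AURKA, of the spindle poles, and AURKB, of the chromosomal passenger complex, had log2 fold changes of -0.05 (SE 0.09) and -0.19 (SE 0.14) in the non-maternal animals. A further AURKA probe set, named here after its values were seen, lay just below the filter and measured 5.92, 5.90, 5.85 and 5.95 in surrogate-peer animals, 5.71, 5.89, 5.90 and 5.84 in peer animals, and 6.11, 5.99, 6.10, 6.11 and 6.05 in maternal animals. All 8 non-maternal values were below all 5 maternal ones, with a log2 fold change of -0.20 (SE 0.05, limma adjusted p = 0.0480 in the fit without the filter). The 2 tested AURKA probe sets, at -0.05 and -0.09, did not match this in size. The fit without the filter called 1467 of all 52707 probe sets. Of the tested probe sets, to which this further AURKA probe set does not belong, 2.87% did not overlap, in either direction. MKI67, which encodes the proliferation antigen Ki-67, had group means of 6.96 ± 0.13, 6.97 ± 0.09 and 7.19 ± 0.29 in surrogate-peer, peer and maternal animals. Its log2 fold change was -0.22 (95% CI -0.47 to 0.02, limma adjusted p = 0.203). TOP2A, the topoisomerase that untangles replicated chromosomes, had -0.29 (SE 0.17), and -0.01 at its second probe set. CENPF, a kinetochore protein, had 0.42 (SE 0.23, limma adjusted p = 0.231). CENPF was lowest on maternal arrays 2 and 5, at 6.76 and 7.55, and without them its difference was -0.02, while that of MKI67 was -0.31 (limma adjusted p = 0.170). TPX2, a spindle assembly factor, lay below the filter with group means of 5.82, 5.77 and 5.82 in surrogate-peer, peer and maternal animals.

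Many of these genes varied together between animals of the same group. Maternal animals had the largest SD of the groups for 14 of the 22 genes, 63.6%, beside 62.3% of all genes. The median SD of a gene was 0.14 in surrogate-peer, 0.16 in peer and 0.25 in maternal animals, beside 0.15, 0.14 and 0.23 over all genes. Maternal array 4 held the highest value of all 13 arrays for 9 of the 22 genes, or 40.9%, beside 13.2% of all genes, among them MCM2, MCM3, MCM4, MCM5, CCNB2, MKI67 and TOP2A. The same array had the highest 3' to 5' ratio of all arrays, 2.23, and the highest plasma cell marker score, 0.56, the next being 0.21 on maternal array 3; the part of either in these values was not tested. Maternal array 2 held the lowest value for 7 genes, or 31.8%, beside 7.46% of all genes.

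With group means removed, the 22 genes tended to move together from array to array. The median Pearson correlation of their 231 pairs across the 13 arrays was 0.33, beside 0.04 over all pairs of genes, as a description of arrays that share labelling, hybridisation and normalization. The MCM genes were closest, with correlations between 0.49 and 0.92 over 6 pairs, the highest being MCM2 with MCM3. All 15 pairs of licensing and helicase genes were positive (median 0.58), as were all 10 pairs of AURKA, AURKB, MKI67, TOP2A and CENPF (median 0.45) and all 30 pairs between these sets (median 0.41). MKI67 and TOP2A had a correlation of 0.70, and CDK2AP1 and CENPF, both low on maternal array 2, had 0.85. PCNA and TYMS varied more apart from the rest, with median correlations of 0.10 and 0.07. POLE2 at its probe set of highest mean ran against the others (median -0.31, with 1 of 21 pairs positive). Its other tested probe set, which ran against that one (Pearson r = -0.42), was not part of these pairs, so the pattern belongs to 1 probe set.

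Wider lists of the same pathways held 6 called genes, all higher in the non-maternal animals. Of further replication genes 1 of 28 tested rose and 0 fell, of further mitosis genes 3 of 21 rose and 0 fell, and of cell cycle regulators 2 of 29 rose and 0 fell. These shares stand beside the 6.30% of all genes that rose and the 1.69% that fell, 7.98% in all. Most calls over all probe sets were also higher, 83.1% of them, against 56.7% with arrays centred on their medians. The median log2 fold changes of the lists were 0.00, -0.06 and -0.05. In peer against maternal, surrogate-peer against maternal and surrogate-peer against peer animals 0 genes of these lists were called.

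MAD2L1, the spindle checkpoint protein Mad2, was the clearest of them. MAD2L1 measured 7.83, 7.83, 7.74 and 7.90 in surrogate-peer animals, 7.81, 7.89, 7.76 and 8.18 in peer animals, and 7.44, 7.10, 7.31, 7.55 and 6.97 in maternal animals. All 8 non-maternal values lay above all 5 maternal ones, as for the 2.64% of genes above, in either direction. Its log2 fold change was 0.59 (SE 0.10, limma adjusted p = 0.0203), and a second probe set gave 0.55 (adjusted p = 0.0234). It no longer passed without maternal array 5 (0.51, adjusted p = 0.0527) or without maternal arrays 2 and 5 (0.43, adjusted p = 0.0690).

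CENPK, a kinetochore protein, measured 9.30, 9.32, 9.77 and 9.25 in surrogate-peer animals, 9.58, 9.44, 9.23 and 9.35 in peer animals, and 9.43, 8.71, 8.70, 8.47 and 8.63 in maternal animals. Maternal array 1 lay among the non-maternal arrays and the other 4 below them all. CENPK had a log2 fold change of 0.62 (SE 0.15, limma adjusted p = 0.0335), and its other tested probe sets, at 0.61 (adjusted p = 0.0845) and 0.48 (adjusted p = 0.0541), did not pass. SMC4, a subunit of the condensin that compacts chromosomes, had 0.58 (SE 0.15, limma adjusted p = 0.0380), and its other tested probe sets had 0.60 (adjusted p = 0.0289), 0.10 and -0.03. TOPBP1, a scaffold for origin firing and the replication checkpoint, had 0.40 (SE 0.11, limma adjusted p = 0.0441). The call of TOPBP1 was lost in 17 of 20 alternative settings, with adjusted p up to 0.177, that of SMC4 in 12 of 20 and that of CENPK in 10 of 20.

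Among the regulators, genes that act in opposite directions rose. TOB1, which restrains proliferation and is known for high levels in resting T cells, had a log2 fold change of 0.62 (SE 0.15, limma adjusted p = 0.0318), and 0.86 (adjusted p = 0.0232) at a second probe set. MYC, a transcription factor that promotes growth and division, measured 11.25, 10.85, 11.04 and 10.85 in surrogate-peer animals, 11.02, 11.04, 11.03 and 11.41 in peer animals, and 10.94, 9.84, 10.45, 10.47 and 9.47 in maternal animals. Maternal arrays 2 and 5 were the lowest, and maternal array 1 lay within the surrogate-peer range. MYC had a log2 fold change of 0.83 (SE 0.21, limma adjusted p = 0.0355), and 0.44 (limma adjusted p = 0.111) without maternal arrays 2 and 5. The call was lost in 12 of 20 alternative settings for MYC and in 8 of 20 for TOB1. Maternal arrays 2 and 5 also had the lowest T cell and the highest monocyte scores, and the part of these markers in these 6 differences was not tested.

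**Figure D5:**
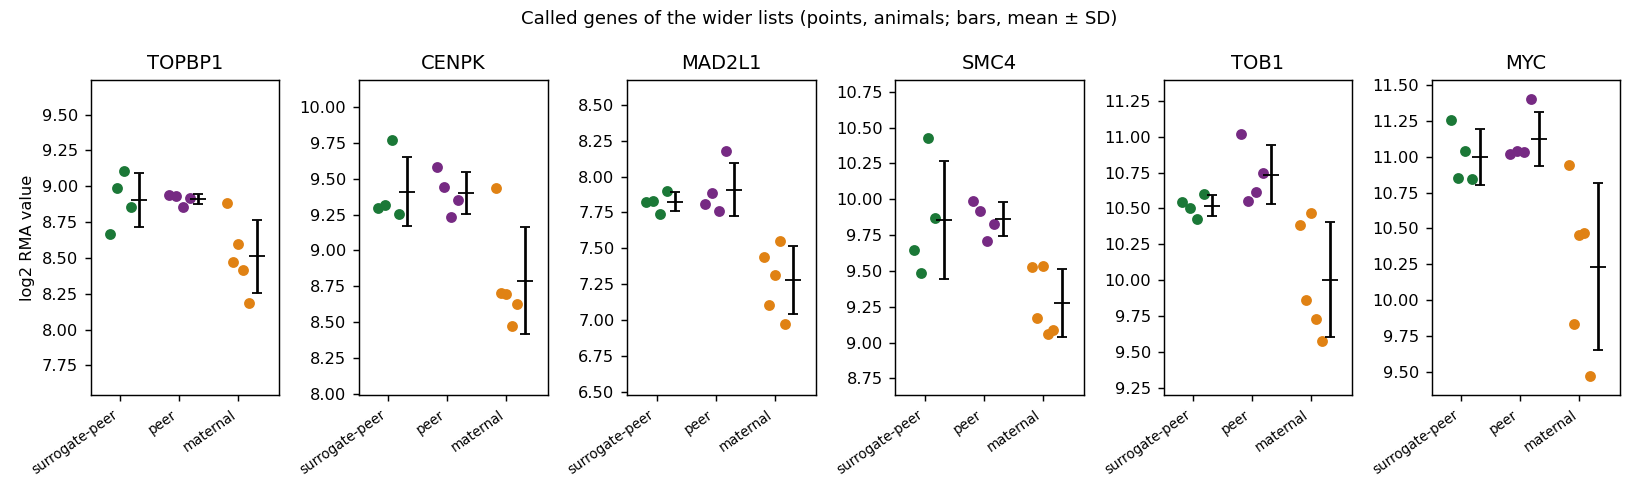
Log2 RMA value of each animal (points) for the 6 called genes of the wider replication, mitosis and regulator lists, by rearing group, with group mean and SD (bars); all panels span the same log2 range. Surrogate-peer and peer animals overlap for each gene, and MAD2L1 is the gene whose 8 non-maternal values all lie above the 5 maternal ones.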

How the data were processed

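Total RNA of peripheral blood mononuclear cells from 13 animals was hybridised to 1 array each, per the labels. The deposited log2 value of a probe set was computed by the authors with RMA, per the submitters' processing notes, a method that corrects background, normalizes between arrays and summarises probes, with its version and settings not given in the sources used here. After 158 control probe sets were left out, the 26352 of 52707 probe sets with a mean above the median of means, 6.04, were tested. Of the 52707, 24956 carried 1 gene symbol in the platform annotation, 361 several and 27390 none. Groups were compared with limma 3.58.1 in R 4.3.3, in 1 fit over all 13 arrays. Tests were two-sided and a call was an adjusted p under 0.05 (Benjamini-Hochberg, all tested probe sets together); the number of arrays limits the precision, and the fit was tested on simulated data.

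Values in every array are given for genes past the threshold and for the 3 smallest p of a comparison where fewer than 3 passed; wider and marker lists name their called genes. The genes and lists were chosen with earlier results of these data known. Alternatives covered the filter, centring or quantile normalization of arrays, array weights, a trended robust prior, fits on the compared arrays only, any tested probe set, and each array left out. Leaving out maternal arrays 2 and 5 together was added after the data were seen. The promoter search planned for these genes was not run, since no sequences were used here.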

Additional observations from a re-analysis of the deposited data

Results flagged for a closer look

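Among 78 combinations of a measured gene and a rearing group, 2 held an array far from the others of its group by Dixon's test, which chance alone gives in about 1 of 20 groups. POLD1 on peer array 3 was 7.959, with the other peer arrays between 8.61 and 8.638. CCNA2 on peer array 4 was 8.812, with the other peer arrays between 8.484 and 8.508.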

How the results depend on the processing

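In the non-maternal against the maternal animals the count of called cell cycle genes was 1, and it was 2 over any tested probe set, 0 without maternal arrays 2 and 5, and between 0 and 2 with each array left out; it was 0 without maternal array 4 and 2 without maternal array 1. Over all probe sets the count was 2107, against 1337 after quantile normalization, 37 without maternal arrays 2 and 5, and 29 to 4830 with each array left out, the lowest without maternal array 4 and the highest without maternal array 1. The higher calls made up 83.1% of those 2107, against 56.7% with arrays centred on their medians and 66.3% after quantile normalization. In peer against maternal animals 0 cell cycle genes were called at the probe set of highest mean under every alternative run. The second CDK2AP1 probe set passed there with array weights (limma adjusted p = 0.0432) and without maternal array 1 (limma adjusted p = 0.0101). The third passed without maternal array 1 (limma adjusted p = 0.0331). Over all probe sets that comparison gave 93 calls, against 50 without the filter, 1 with the stricter filter, 5 with arrays centred, 6 after quantile normalization, 0 with the compared arrays only, 1543 with array weights, 59 with a trended robust prior, 3 without maternal arrays 2 and 5, and 0 to 3488 with each array left out. In surrogate-peer against maternal animals the count of 0 cell cycle genes at the probe set of highest mean became 1 with arrays centred and 1 after quantile normalization. It was 0 to 1 with each array left out. The second CDK2AP1 probe set also passed without maternal array 1 (limma adjusted p = 0.0173). The 0 calls over all probe sets there became 1 without the filter, 33 with arrays centred, 25 after quantile normalization, 1 without maternal arrays 2 and 5, and 0 to 2097 with each array left out. Surrogate-peer against peer gave 0 calls under every alternative run.

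The POLD1 log2 fold change of -0.69 lay between -0.79 and -0.61 over all alternatives, and its second probe set, at -0.06, ranged from -0.12 to 0.0099 with each array left out, turning to 0.0099 without maternal array 3, and was -0.19 without maternal arrays 2 and 5. Of the 22 genes, 12 kept their sign under all alternatives run for the non-maternal comparison and 10 did not. Among the called genes of the wider lists all alternatives kept the sign, and the call was lost in 17 of 20 for TOPBP1, 12 of 20 each for SMC4 and MYC, 10 of 20 for CENPK, 8 of 20 for TOB1 and 2 of 19 for MAD2L1. The cause of these changes was not tested, apart from the smaller number of arrays where some were left out. No paired analysis was possible because the labels give no replicate numbers that groups share.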
